A study of Homo sapiens with 6 samples.

Results

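The E2F transcription factors and the pocket proteins that hold them in check were examined in Hep3B, an established human hepatocellular carcinoma cell line. The genes were taken by name from the deposited tables and comprised E2F1, E2F2, E2F3, E2F4, E2F5, E2F6, E2F7, E2F8, RBL1 and RBL2, which is 10 of the 23228 genes measured. RNA sequencing covered 3 control libraries, made from cells given a non-targeted shRNA by lentivirus, and 3 libraries labelled PELP1-KD, made from cells given an shRNA against PELP1 and grown out under puromycin as pooled stable clones. The titles of the second group name the first PELP1 shRNA, whereas the protocol text names both hairpins, and no label states whether the replicates of a group came from separate cultures, so p values measure only the spread between these samples. The study compared the groups to ask which genes respond to loss of PELP1, a scaffold protein of chromatin and ribosome assembly complexes.

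The libraries held 26758636 to 34456864 reads on genes, from 30319619, 26758636 and 31536114 in the PELP1-KD libraries to 34456864, 32946308 and 33220510 in control. PELP1 RNA in the libraries labelled PELP1-KD stood at 94.5% of control (log2 fold change −0.08, adjusted p = 0.101), which edgeR did not call, so each direction below is that of the labels. Its normalized reads were 4893, 4914 and 5102 in control and 4421, 4825 and 4840 in PELP1-KD libraries, so the groups did not overlap. The groups did not overlap for 58.8% of all tested genes. PELP1 was called lower in only 3 of 14 fits, the main one and its alternatives, with log2 fold changes from −0.10 to −0.04. One of the 3 was edgeR with the replicate number as a block, at an adjusted p of 0.0106. The paper reports lower PELP1 protein by Western blot in PELP1-KD Hep3B cells, which these RNA counts do not measure. All 9 liver cell markers examined were expressed in every library, with a sum of 871000 to 884800 normalized reads in control and 768800 to 784400 in PELP1-KD libraries. Of these, 6 were lower, albumin among them, and 3 higher (AFP, FGB and HNF4A), and their part in the results below was not tested. Of 10 markers of leukocytes, endothelium and fibroblasts, 5 stayed below 10 normalized reads in every library and CDH5 had 0 reads in all 6. The other 5 were LYZ, CD68, PECAM1, LUM and COL1A2. Their sum with the rest of the list was 6556 to 7008 normalized reads in control and 5091 to 5205 in PELP1-KD libraries, with LYZ lower (log2 fold change −1.55), LUM (0.92), CD68 (0.48) and COL1A2 (0.51) higher and PECAM1 not called. The part of these in the results below was likewise not tested.

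E2F proteins bind the promoters of genes for DNA synthesis and cell division. E2F1, E2F2 and E2F3 are the activators, which pair with a DP protein and are released when cyclin-dependent kinases phosphorylate the retinoblastoma protein RB1. E2F4 and E2F5 mostly work with the RB1 relatives p107 (RBL1) and p130 (RBL2), which in resting cells join the MuvB core to form the repressive DREAM complex. E2F6 lacks the pocket-protein binding segment and sits in a Polycomb complex, PRC1.6, that keeps germ cell genes silent. E2F7 and E2F8 carry a pair of DNA-binding domains, need no DP partner and shut E2F target genes down again late in S phase. Several E2F and pocket protein genes are E2F targets themselves, so the family is wired as a loop.

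Their promoters are shown because they carry the letters E2F proteins bind. RefSeq promoter windows (GRCh38.p14, 250 bases before to 50 after the annotated start) were found for 8 of the 10 genes, with none for E2F5 and E2F8. The letters TTTCGCGC, TTTGGCGC, TTTCCCGC and TTTGCCGC, forms of the E2F consensus, were searched on both strands, with no overlap between the matches found in these genes. A match was present in 4 of the 8 genes (50%), E2F1, E2F2, E2F3 and RBL1. This compares with 3.99% of the 27305 genes with a window and 3.31% of the 35116 windows, which include genes not tested here. Of the tested genes with a window, 639 had a match and 9226 had none. TFDP1, the gene of the main DP partner, also had one. The 130 bases before the start of these 5 genes are given 5′ to 3′ on the strand of the gene, with the matched letters in capitals. They lie at chr20:33686386-33686515 for E2F1 (minus strand), chr1:23531234-23531363 for E2F2 (minus), chr6:20401749-20401878 for the first of the 2 E2F3 starts (plus), chr20:37095998-37096127 for RBL1 (minus) and chr13:113584623-113584752 for TFDP1 (plus).
E2F1: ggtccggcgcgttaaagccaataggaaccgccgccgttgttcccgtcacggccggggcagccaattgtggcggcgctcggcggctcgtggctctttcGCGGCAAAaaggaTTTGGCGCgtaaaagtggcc
E2F2: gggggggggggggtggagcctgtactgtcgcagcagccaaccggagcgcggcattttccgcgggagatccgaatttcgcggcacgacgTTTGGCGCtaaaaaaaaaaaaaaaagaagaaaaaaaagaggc
E2F3: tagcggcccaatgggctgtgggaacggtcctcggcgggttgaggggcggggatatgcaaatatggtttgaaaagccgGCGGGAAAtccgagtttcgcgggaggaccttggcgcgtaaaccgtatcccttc
RBL1: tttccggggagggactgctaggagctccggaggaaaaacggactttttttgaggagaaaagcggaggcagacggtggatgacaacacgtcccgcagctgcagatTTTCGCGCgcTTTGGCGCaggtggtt
TFDP1: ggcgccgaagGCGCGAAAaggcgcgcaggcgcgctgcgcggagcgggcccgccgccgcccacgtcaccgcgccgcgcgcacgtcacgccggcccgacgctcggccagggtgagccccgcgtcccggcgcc

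E2F1 had 2 matches, the nearer beginning 20 bases before the start, and RBL1 had 2, beginning 26 and 16 bases before it. The match of E2F2 began 42 bases and that of E2F3 53 bases before the start, while that of TFDP1 lay farther off, at 120 bases. No match was present in the windows of E2F4, E2F6, E2F7 and RBL2. A match is a run of letters, not a shown binding site.

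The family was expressed at very unequal levels. Levels of different genes were compared as RPKM, reads per kilobase of exon scaled to the size of the library. E2F1 was the highest in control, at 37.9, 39.0 and 38.4 RPKM, followed by E2F4 at 33.0, 32.7 and 36.2. E2F5 came next with a mean of 13.1 RPKM, and then E2F3 with 9.41. RBL2 (7.70), E2F6 (7.53) and E2F8 (7.09) followed closely, and RBL1 (4.62), E2F2 (3.77) and E2F7 (2.80) were the lowest. The ranges of neighbours in this order were separate in control except those of RBL2 and E2F6. In the PELP1-KD libraries the genes at the top (E2F1, E2F4 and E2F5) and at the bottom (RBL1, E2F2 and E2F7) were in the same order, but RBL2, at a mean of 8.90 RPKM, now stood above E2F3 (7.83), and its range met that of E2F5 (9.25). The ranges of E2F3 and E2F8, and those of RBL1 and E2F2, also overlapped there. E2F1 alone made up 32.7% to 33.8% of the summed RPKM of E2F1 to E2F8 in the control libraries and 35.7% to 38.1% in the PELP1-KD libraries, so the groups did not overlap.

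**Figure D1:**
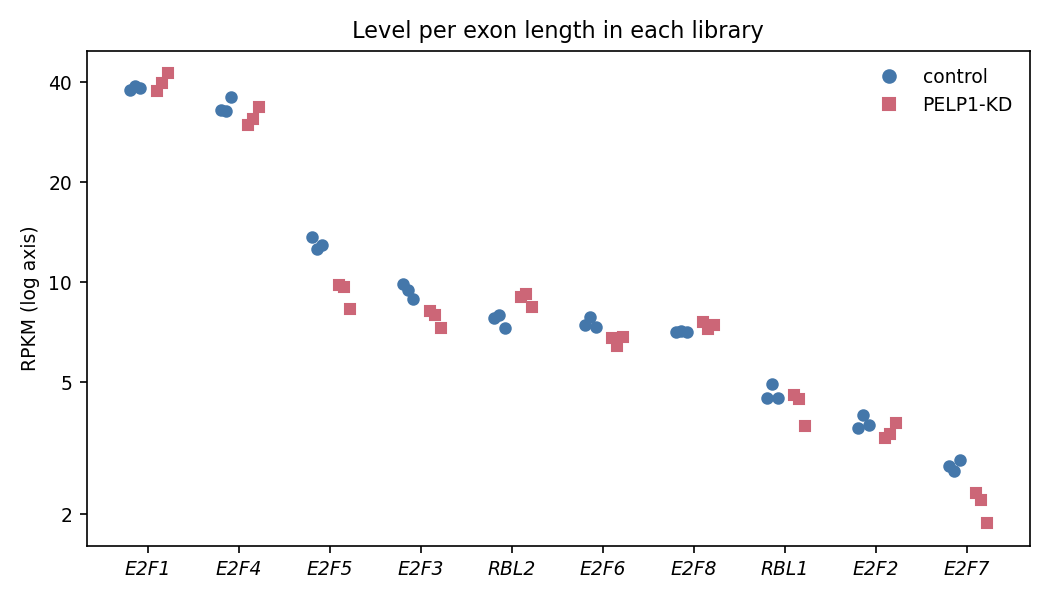
RPKM of the 10 genes on a log axis in each library, ordered by the control mean, with control as blue circles and PELP1-KD as red squares (3 libraries each). E2F1 and E2F4 stand near 30 to 40 RPKM in both groups, and E2F7 lies lowest, with every PELP1-KD value below every control value.

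All 10 genes passed edgeR's filter on low counts. At an adjusted p below 0.05 over all 14537 tested genes, 5 of the 10 were called, 4 lower (E2F3, E2F5, E2F6 and E2F7) and 1 higher (RBL2) in the PELP1-KD libraries. Among all tested genes 53.6% were called, 26.7% lower and 26.8% higher, so the share of members called was near that of any gene. The values of the groups did not overlap for 6 of the 10 genes, the 5 called ones and E2F8, against 58.8% of all tested genes. None of them changed 2-fold, whereas 696 of the 14537 tested genes were called lower by at least 2-fold and 415 higher. Log2 fold changes ran from −0.50 for E2F5 to 0.21 for RBL2, with a median of −0.12 beside a median of 0.00 over all tested genes. In bulk RNA, fewer cells in a given phase of the cycle and less RNA per cell cannot be told apart.

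**Figure D2:**
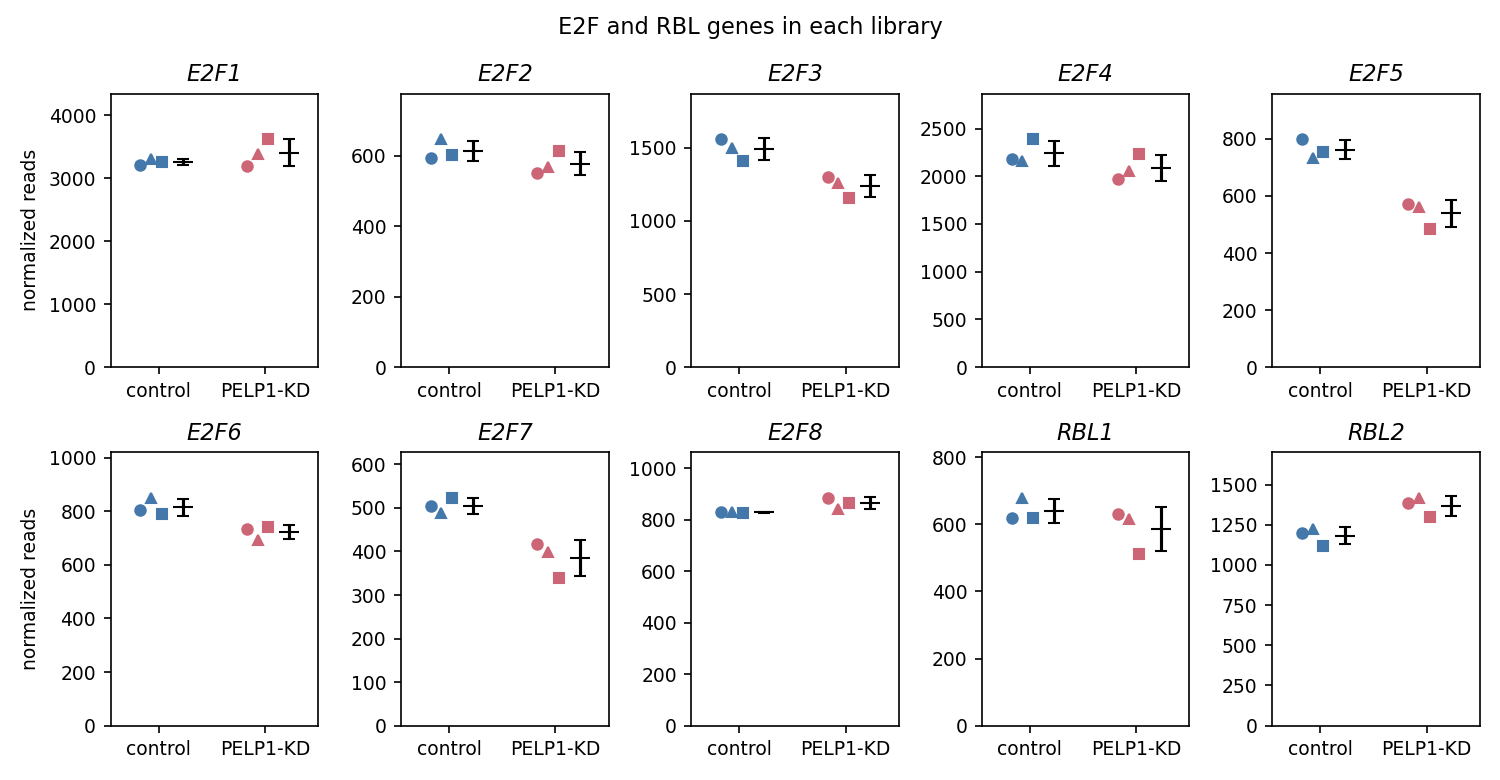
Normalized reads of each gene in each library (circle, triangle and square for replicates 1, 2 and 3), with the mean and SD of 3 libraries beside them in black. E2F3, E2F5, E2F6 and E2F7 sit lower and RBL2 sits higher in every PELP1-KD library, whereas E2F1, E2F2, E2F4 and RBL1 overlap between the groups.

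Of the activators, only E2F3 was called. E2F1, on chromosome 20 of hg19 (32263292 to 32274210, minus strand), had 3214, 3310 and 3260 normalized reads in control and 3199, 3390 and 3619 in the PELP1-KD libraries. The groups overlapped, as the first PELP1-KD library held the lowest value of the 6 and the third the highest. Its log2 fold change was 0.06 (95% interval −0.03 to 0.15, adjusted p = 0.261). E2F2, on chromosome 1 (23832920 to 23857712, minus strand), was the scarcest activator, with 594, 648 and 604 normalized reads in control and 552, 568 and 614 in PELP1-KD libraries. It also overlapped, with a log2 fold change of −0.09 (95% interval −0.23 to 0.05, adjusted p = 0.282). E2F3, on chromosome 6 (20402137 to 20493945, plus strand), fell from 1560, 1499 and 1412 normalized reads to 1300, 1263 and 1156. Every PELP1-KD value lay below every control value, and the log2 fold change was −0.27 (SE 0.05, adjusted p = 0.000397). Within the libraries, E2F1 exceeded E2F3 by a log2 ratio of RPKM of 2.03 ± 0.08 (SD, n = 3) in control and 2.36 ± 0.18 (SD, n = 3) in PELP1-KD libraries. The values of the groups were separate, but with 3 libraries a group an exact permutation test cannot call such a ratio, here or for the ratios below. The promoter matches did not separate these genes, since E2F1, E2F2 and E2F3 all carried one.

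Of the partners of p107 and p130, E2F5 fell and E2F4 was called only in some fits. E2F4, on chromosome 16 (67226068 to 67232821, plus strand), had 2176, 2158 and 2389 normalized reads in control and 1970, 2054 and 2230 in the PELP1-KD libraries. The third library of each group was the highest of its group and the groups overlapped. The log2 fold change was −0.10 (95% interval −0.21 to 0.00, adjusted p = 0.0985). With the replicate number as a block it was −0.11 and called lower, at an adjusted p of 0.00616, and without PELP1-KD replicate 3 it was −0.16, also called (adjusted p = 0.0038). E2F5, on chromosome 8 (86089619 to 86126753, plus strand), fell most of the 10 genes. It had 799, 733 and 754 normalized reads in control and 570, 562 and 485 in the PELP1-KD libraries, so that all the latter were lower. PELP1-KD libraries held 70.8% of the control level (log2 fold change −0.50, SE 0.07, adjusted p = 5.38e-06), and 80.5% of tested genes had a smaller change in either direction. C8orf59 lies on the other strand over 466 of the 1856 exon bases of E2F5, and the tables were counted by strand. The genes whose pattern over the 6 libraries lay nearest to that of E2F5 were PRKAA2, a catalytic subunit of the AMP-activated kinase, ALDH6A1, a mitochondrial enzyme of valine breakdown, and NCBP2, a subunit of the nuclear cap-binding complex. Their mean-centred log2 values differed from those of E2F5 by a root mean square of 0.028, 0.0398 and 0.0413 among 11768 genes compared.

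Among the repressors outside the pocket protein system, E2F6 and E2F7 fell and E2F8 was not called. E2F6, on chromosome 2 (11584501 to 11606297, minus strand), had 803, 851 and 791 normalized reads in control and 734, 693 and 741 in PELP1-KD libraries. The groups were separate but close, with a log2 fold change of −0.17 (SE 0.06, adjusted p = 0.0189). This call was lost without control replicate 2 (adjusted p = 0.104) and without PELP1-KD replicate 2 (adjusted p = 0.0955). In 5 of the 6 libraries the deposited E2F6 value was not whole, because reads matching several places or genes had been shared out. The number of E2F6 reads shared was not measured, so how much less certain this gene is cannot be said. Values were also not whole in 2 libraries for E2F1 and E2F4 and in 1 for E2F2, E2F3 and RBL2. E2F7, on chromosome 12 (77415026 to 77459360, minus strand), fell from 503, 488 and 524 normalized reads to 417, 399 and 339. PELP1-KD libraries held 76.2% of the control level (log2 fold change −0.39, SE 0.08, adjusted p = 0.000354). E2F8, on chromosome 11 (19245610 to 19262507, minus strand), had 830, 831 and 827 normalized reads in control and 887, 843 and 866 in PELP1-KD libraries. Each PELP1-KD value was higher, by little, and the gene was not called (log2 fold change 0.06, 95% interval −0.05 to 0.17, adjusted p = 0.354). E2F7 RNA stood below that of its relative E2F8, at a log2 ratio of RPKM of −1.34 ± 0.05 (SD, n = 3) in control and −1.80 ± 0.16 (SD, n = 3) in the PELP1-KD libraries, without overlap.

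Of the pocket protein relatives, RBL2 rose and RBL1 was not called. RBL2, encoding p130, which is known to prevail in resting cells, was the only member called higher. It lies on chromosome 16 (53468351 to 53525560, plus strand) and had 1201, 1225 and 1121 normalized reads in control and 1383, 1419 and 1296 in PELP1-KD libraries. The log2 fold change was 0.21 (SE 0.05, adjusted p = 0.00261), with all 3 PELP1-KD values above control. AKTIP overlaps 369 of its 4886 exon bases on the other strand. RBL1, encoding p107, which is known to build up as cells enter S phase, lies on chromosome 20 (35626178 to 35724410, minus strand). It had 618, 680 and 620 normalized reads in control and 631, 616 and 510 in the PELP1-KD libraries, of which the second, narrowly, and the third lay below all control values and the first among them. RBL1 was not called (log2 fold change −0.13, 95% interval −0.29 to 0.03, adjusted p = 0.175). The log2 ratio of RBL1 to RBL2 in RPKM was −0.74 ± 0.06 (SD, n = 3) in control and −1.08 ± 0.11 (SD, n = 3) in PELP1-KD libraries, and the groups did not overlap. Nearest to RBL2 over the 6 libraries were TMEM38B, DENND5B and NAMPT, with root mean square differences of 0.0147, 0.0165 and 0.0175.

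**Figure D3:**
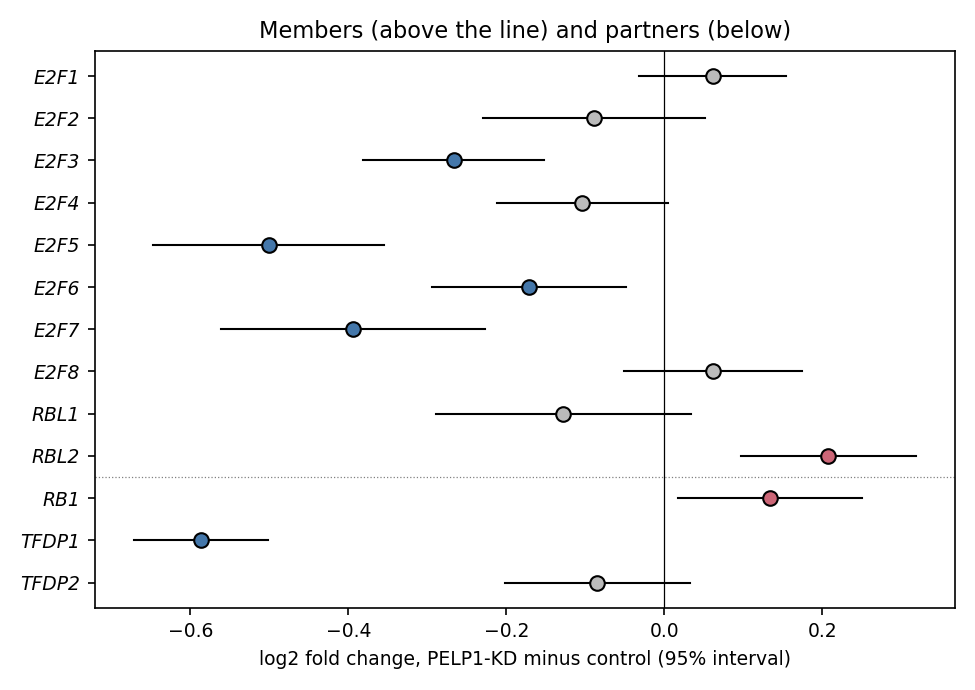
Log2 fold change of PELP1-KD against control with its 95% interval from edgeR for the 10 genes and, below the dotted line, RB1, TFDP1 and TFDP2. Blue points were called lower, red points higher and grey points were not called. TFDP1 (−0.59) and E2F5 (−0.50) lie farthest to the left and RBL2 (0.21) farthest to the right.

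RB1 and the DP genes, which are needed to read the family, were examined beside it. RB1, on chromosome 13 (48877883 to 49056026), had a mean of 1676 ± 68.6 normalized reads (SD, n = 3) in control and 1839 ± 154 (SD, n = 3) in PELP1-KD libraries, which overlapped. Its log2 fold change of 0.13 was called at the margin (adjusted p = 0.0487) but not by DESeq2 (adjusted p = 0.0739). It was called in 5 of 14 fits, and without PELP1-KD replicate 1 it was 0.06 (adjusted p = 0.324). TFDP1, which encodes the main dimer partner of E2F1 to E2F6, was lower in all 3 PELP1-KD libraries. It lies on chromosome 13 (114239003 to 114295788, plus strand), and fell from 4628 ± 16.8 normalized reads (SD, n = 3) to 3083 ± 139 (SD, n = 3), or 66.6% of control (log2 fold change −0.59, SE 0.04, adjusted p = 2.7e-10). TFDP2 was far scarcer per length, at 2.98 RPKM in control against 54.7 for TFDP1. It was not called (log2 fold change −0.08, adjusted p = 0.213), although every PELP1-KD value lay, narrowly, below every control value. TFDP3 had 0 reads in every library.

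The position of these genes was then compared with their direction, a look chosen after the values had been seen. TFDP1 was surrounded by lower genes, as 15 of the 19 tested genes within 2 Mb were called lower and 0 higher, with a median log2 fold change of −0.38. Its own part in that regional shift was not tested. RB1, on the same chromosome, had 24 tested neighbours with a median of 0.23, of which 12 were called higher and 0 lower. The shares to set beside each count here are those of all tested genes, 26.7% called lower and 26.8% called higher. Around the called members the medians were nearer to 0. E2F5 had 8 tested neighbours with a median of 0.06, E2F7 had 14 with a median of 0.06, and E2F3 had 83 with a median of −0.02, of which 20 were called lower and 10 higher. E2F6 had 19 with a median of −0.07. RBL2 rose among 8 neighbours with a median of −0.09, 3 of them called lower. E2F1, which was not called, lay among 48 tested genes with a median of 0.16, of which 29 were called higher and 5 lower. The other members that were not called had the opposite sign to the median of their neighbours. That median was 0.03 over 42 genes for E2F2 and 0.09 over 65 for E2F4. It was −0.17 over 22 genes for E2F8 and 0.11 over 47 for RBL1.

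The genes that work around the E2F family were counted in lists compiled from general knowledge, with earlier results of these data known. In the MuvB list, which holds the DREAM core and the factors MYBL2, MYBL1 and FOXM1, 2 of 8 genes were called lower and 0 higher, and the share called lower was near the 26.7% of all tested genes. The called genes were MYBL2 (log2 fold change −0.27, adjusted p = 2.79e-06) and FOXM1 (−0.17, adjusted p = 0.000948), which take over MuvB in dividing cells. The 5 core genes LIN9, LIN37, LIN52, LIN54 and RBBP4 had log2 fold changes between −0.09 and 0.07, and none was called. Of 12 PRC1.6 genes, 3 were called lower and 2 higher, with a median of −0.03, which is no more than the 26.7% and 26.8% of all tested genes. WDR5 (−0.21), PCGF6 (−0.23) and CBX3 (−0.20) fell, and RYBP (0.23) and MAX (0.16) rose. The calls of CBX3 and MAX were lost with DESeq2 (adjusted p = 0.0504 and 0.0672) and that of PCGF6 without control replicate 1 (adjusted p = 0.0853). The replicate block called 6 of the 12 lower. Germ cell genes known to be silenced by E2F6 were almost without reads. Of 7, only STAG3, a meiotic cohesin subunit, was tested, and it had 105 ± 3.34 normalized reads in control and 199 ± 9.91 in PELP1-KD libraries (SD, n = 3), which is higher by 0.92 on the log2 scale (SE 0.11, adjusted p = 7.14e-07). SLC25A31 and TUBA3C had 0 reads in all libraries. SMC1B had 7, 3 and 4 reads in control and 4, 0 and 2 in PELP1-KD libraries, and MEI1 had 1, 1 and 1 in control and 10, 2 and 2 in PELP1-KD libraries. A single tested gene gives no direction for the list, as 26.8% of all tested genes were called higher. A link of STAG3 to the E2F6 level was not tested.

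Upstream of the family, 8 of 18 cyclins, kinases, inhibitors and ubiquitin ligase subunits were called lower and 3 higher, with a median log2 fold change of −0.20. Among all tested genes, 26.7% were called lower and 26.8% higher. Of the inhibitors of cyclin-dependent kinases, CDKN2B and CDKN2A were called higher, CDKN1C and CDKN2C lower, and CDKN1A, CDKN1B and CDKN2D were not called. CDKN2B, encoding the CDK4 and CDK6 inhibitor p15, had 1595 ± 30.8 normalized reads in control and 4315 ± 35.9 in PELP1-KD libraries (SD, n = 3) and so rose by 1.44 on the log2 scale (SE 0.04, adjusted p = 2.3e-16). CDKN2A, the gene of p16 and ARF, rose by 0.33 on the log2 scale (adjusted p = 2.08e-06). CDKN1C, encoding p57, had 898 ± 26.3 and 121 ± 10.3 (SD, n = 3) and so fell by 2.89 on that scale (SE 0.08, adjusted p = 2.58e-16). CDKN2C, encoding p18, fell by 0.90 on the log2 scale (adjusted p = 2.3e-07). The D cyclins, which drive CDK4 and CDK6 against the pocket proteins, were also split. CCND1, by far the most abundant, rose by 0.15 (adjusted p = 0.000325), CCND3 fell by 0.84 (adjusted p = 2.24e-07), and CCND2, which was picked out for its values, had 32, 28 and 45 reads in control and 3, 1 and 4 in PELP1-KD libraries. Of the kinases, CDK6 was called lower (log2 fold change −0.26, adjusted p = 0.000381), with every PELP1-KD value below every control value. CDK2 and CDK4 were not called, with log2 fold changes of 0.03 and 0.02.

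**Figure D4:**
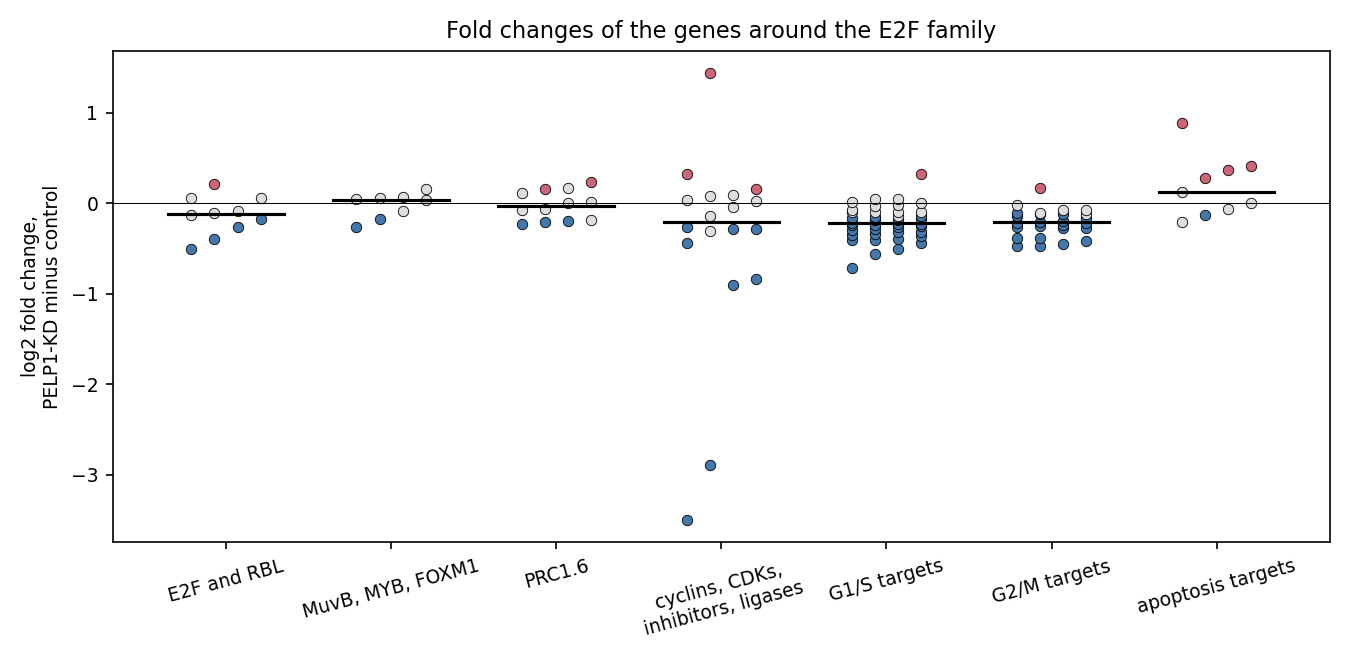
Log2 fold change of each tested gene of the E2F and RBL genes and of 6 lists, with called genes in blue (lower) or red (higher), others in grey, and the median as a bar. The G1/S (−0.22) and G2/M (−0.21) medians lie below 0, and the widest spread, from −3.49 for CCND2 to 1.44 for CDKN2B, is among the cyclins, kinases, inhibitors and ligases.

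Most of the known targets on the lists were lower. Of 40 genes of the G1/S transition known as E2F targets, 27 were called lower and 1 higher, with a median log2 fold change of −0.22. For comparison, 26.7% of all tested genes were called lower. The list shares 2 genes, CCNE1 and CCNE2, with the list of cyclins, kinases, inhibitors and ligases. It shares 1 gene, MYBL2, with the MuvB list. The lower calls of CCNE1 and MYBL2 are thus counted in both lists that hold them. The smallest p values among the lower genes were those of MCM3, a subunit of the replicative helicase (−0.56, adjusted p = 9.13e-11), BRCA2, which acts in homologous recombination (−0.72, adjusted p = 1.6e-08), and SLBP, the histone stem-loop binding protein (−0.40, adjusted p = 8.19e-08). MCM6, of the same helicase, was the 1 gene called higher (0.32, adjusted p = 1.86e-07). No gene of the list changed 2-fold. The study chose 5 of these genes on these same libraries for RT-qPCR (BRCA2, CCNE1, CDCA7, MCM3 and POLA2), and of the other 35, 22 were called lower and 1 higher, with a median of −0.18. The other 35 were also listed with earlier results of these data known, so their count is not independent of the data. Of 26 genes of G2 and mitosis known as DREAM and MuvB targets, 20 were called lower and 1 higher (CDC25C), with a median of −0.21. BIRC5 (−0.47, adjusted p = 9.63e-09), PLK1 (−0.45, adjusted p = 1.77e-08) and CENPF (−0.42, adjusted p = 1.83e-08) had the smallest p values. BIRC5 was also chosen by the study on these libraries, and without it 19 of 25 were called lower. That list too was drawn up with earlier results known. CDC25C (0.17, adjusted p = 0.0469) was not called by DESeq2 (adjusted p = 0.0959).

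Apoptosis genes known as targets of E2F1 were also counted. Of 9 tested, 4 were called higher and 1 lower, with a median of 0.12, beside 26.8% and 26.7% of all tested genes. BCL2L11, encoding the BH3-only protein BIM, had 1312 ± 76.1 normalized reads in control and 2430 ± 69.6 in PELP1-KD libraries (SD, n = 3) and rose by 0.89 on the log2 scale (SE 0.05, adjusted p = 8.29e-12). The caspase gene CASP8 (0.28, adjusted p = 0.000254) and the BH3-only gene PMAIP1 (0.41, adjusted p = 0.000408), the last picked out for its value, also rose. SIVA1 was called lower (−0.13, adjusted p = 0.0347), a call lost with DESeq2 (adjusted p = 0.0516).

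Promoter matches were last set against direction, also after the values had been seen. Of the G1/S list, 34 genes had a window, and 20 of them (58.8%) held a match. Of these 20, 14 were called lower and 1 higher (median −0.23), and of the 14 without a match 9 were called lower and 0 higher (median −0.18). Over all tested genes with a window, 31.1% of the 639 with a match were called lower and 22.1% higher, compared with 27.9% and 27.5% of the 9226 without one. Of the G2/M list, 2 of 21 windows held a match (9.52%).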

How the data were processed

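Per the file headers, the authors deposited estimated counts per gene for each library, made with featureCounts 1.5.0-p1 by strand on exons of the UCSC hg19 genes, with a minimum mapping quality of 2, and with reads that matched several places or genes shared out as fractions. The submitters' processing notes name HISAT2, whereas the paper's methods name TopHat2 and HTSeq. The labels also disagree on the RNA kit and on single or paired reads. The share of genes with a fractional value ran from 10.6% to 13.3% per library, and values were rounded to whole numbers.

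Libraries were grouped by the treatment label. Fold changes came from edgeR 4.0.16 (R 4.3.3, TMM, filterByExpr, robust glmQLFit and glmQLFTest without a block), fitted to all genes, with Benjamini-Hochberg adjustment over 14537 genes and calls at an adjusted p below 0.05. A standard error (SE) is the size of the log2 fold change divided by the root of its F statistic, and 95% intervals use the fit's degrees of freedom. Normalized reads are reads divided by each library's TMM-adjusted size, itself set relative to the geometric mean of the 6 sizes. The median standard error of a log2 fold change was 0.063. Libraries held 26758636 to 34456864 reads.

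The members and lists were chosen with earlier results of these data known. Named were the members, PELP1, RB1, TFDP1 and TFDP2, the 3 genes of each list with the smallest p in each direction, and the 3 genes (mean of at least 100 normalized reads) nearest to the most clearly lower and higher member. Alternatives were DESeq2 1.42.0, DESeq2's size factors or upper-quartile scaling in edgeR, no filter, at least 10 reads in every library, the replicate block, each library left out, and other thresholds. The deviations of same-numbered libraries from their group means correlated at 0.336, 0.247 and 0.666 over 6370 genes. These were all above 0.1, so the numbers from the titles were taken as pairs, but only in the replicate block. The main calls, standard errors and intervals are unpaired. Differently numbered libraries 1 and 2 correlated as much, at 0.418 (control 2 with PELP1-KD 1) and 0.244 (control 1 with PELP1-KD 2), and replicate 3 with the others at −0.569 to −0.372, so only replicate 3 is set apart by its number. One gene that this rule names is not reported here.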

Additional observations from a re-analysis of the deposited data

How the results depend on the processing

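The direction of all 10 members held under every alternative run, with and without each library. E2F3, E2F5, E2F7 and RBL2 were called in all 14 fits, E2F6 in 12 and E2F4 in 3, and E2F1, E2F2, E2F8 and RBL1 in 0. The count of members called was 5 in the main analysis, 6 with the replicate block, and 4 to 6 with a library left out (3 to 5 lower, 1 higher). Of the 14537 tested genes, 7786 were called in the main analysis, 8826 with the replicate block and 7010 with DESeq2. The member count was 0 with a threshold of a 2-fold change added, which 696 of the 14537 tested genes passed as lower and 415 as higher. Without replicate 3 of both groups, a fit chosen after seeing the data because replicate 3 stood apart in both, it was 6, with E2F4 lower (adjusted p = 0.018). Leaving out a library moved E2F1 between 0.01 and 0.10, E2F2 between −0.14 and −0.05, E2F4 between −0.16 and −0.05 and RBL1 between −0.19 and −0.03. The pairing changed no other call of a member.

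Counts in the lists moved little, except small ones. The single G2/M gene called higher was 0 with DESeq2's size factors, upper-quartile scaling, DESeq2, at least 10 reads in every library and without replicate 3 of both groups. DESeq2 called 1 PRC1.6 gene higher and 0 apoptosis genes lower, the replicate block called 6 PRC1.6 genes lower, and without replicate 3 of both groups 2 MuvB genes were called higher. With each library left out, genes called lower numbered 25 to 30 in the G1/S list, 16 to 22 in the G2/M list, 8 to 9 upstream, 1 to 4 in PRC1.6, 2 in MuvB and 0 to 1 in the apoptosis list, and genes called higher 1 to 2, 0 to 1, 3, 1 to 3, 0 to 1 and 4 to 5. The causes were not tested. Intervals and tests with 3 libraries a group rest on a spread pooled over genes, and E2F7, the least abundant member per length, had the widest standard error of the 10 (0.08).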
